A study of Mus musculus with 6 samples.

Results

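ABC transporters are membrane pumps that spend ATP to move drugs, lipids, peptides and metabolites, and they are sorted by sequence into subfamilies A to G. The genes described here are the rows of the deposited expression table whose symbol begins with Abc, a letter from a to g and a digit. There are 28 of them among the 12151 genes in the table, of which 26 are described, and RefSeq (GRCm38.p6) lists 50 mouse genes with such a symbol. All members of subfamilies E (1) and F (3) were in the table, with 6 of 16 in A, 5 of 10 in C and 2 of 6 in G. Others, among them the sterol exporter genes Abca1 and Abcg1, the P-glycoprotein gene Abcb1a and the multidrug resistance gene Abcc3, are not analysed here.

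The RNA came from mouse glioma cells cultured in either of 2 forms, with 3 sequencing libraries each. GL261, an established mouse glioma line, was kept in serum-containing medium and stands in the labels for the differentiated state, at passages 17, 33 and 34 by title; the passage field of the last says 33. The mNS cells grew as neurospheres without serum, in B-27 medium with basic FGF, EGF and heparin, and are labelled as stem-like glioma cells of passages 72, 77 and 85. Both media held antibiotics, HEPES, glutamine and β-mercaptoethanol. Each library held between 12534422 and 14225175 reads in listed genes, and the values are CPM, the authors' counts per unit of library size, with 1 read worth 0.0708 to 0.0773 CPM. Cell line, medium and passage range differ together between the groups, so their parts in any difference cannot be told apart. The labels name no separate cultures beyond the passage. Each p-value therefore reflects library-to-library spread, which includes passage and may otherwise be technical. The GL261 passages 33 and 34 are adjacent by title and the same by the field.

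A full ABC pump has a pair of membrane domains and a pair of ATP-binding domains, either in 1 long chain, as in most of A and C, or assembled from shorter chains, as in D, G and the organelle members of B. Subfamilies E and F have ATP-binding domains only and act on ribosomes and translation rather than on transport. In tumours of the brain the best known members are the drug pumps P-glycoprotein, the breast cancer resistance protein Abcg2 and the multidrug resistance proteins of subfamily C, which also guard the vessels of the blood-brain barrier.

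Most of the drug and organic anion pumps were higher in the neurospheres, while Abcg2 was about level. The peroxisomal Abcd3 and the lysosomal Abcb9 were lower. Of the 4 translation members 1 was called higher and 2 lower, with differences of no more than 0.46 on the log2 scale. The difference between forms was tested for every gene with limma on log2(CPM + 1), and the threshold for a call was an adjusted p of 0.05. Of the 26 members 25 were tested; Abcg4 lay under the minimum mean of 1 CPM. Among the 25, 15 were called higher in mNS (60%) and 4 lower (16%), against 32.2% and 32.1% of all 12006 genes tested. In either direction 76% of the members were called and 64.3% of all genes. The count tests on whole reads called 14 members higher and 4 lower in edgeR (63.7% of all genes in either direction) and the same numbers in DESeq2 (61.2%). A difference of at least 1 on the log2 scale was called upward for 7 members (28%, all genes 11.3%). It was called downward for 1, Abcb9 (4%, all genes 8.47%), and 19.7% of all genes passed in either direction. Among the 7, Abca12 and Abcc2 reached the minimum mean only through mNS. Their means were 0.0490 and 0.420 CPM in GL261 and 2.93 and 2.08 CPM in mNS. Such genes could be called only as rises, and both also enter the 15 called higher. The median difference of the 25 members was 0.53, and that of all tested genes was -0.0027. In 14 of the 25 every mNS library lay above every GL261 library (34.7% of all genes) and in 5 below (35.2%; either way, 69.9% of all genes). Members are not replicates, and these shares describe the list without testing it. In bulk RNA, fewer cells of a type and less RNA per cell cannot be told apart.

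**Figure D1:**
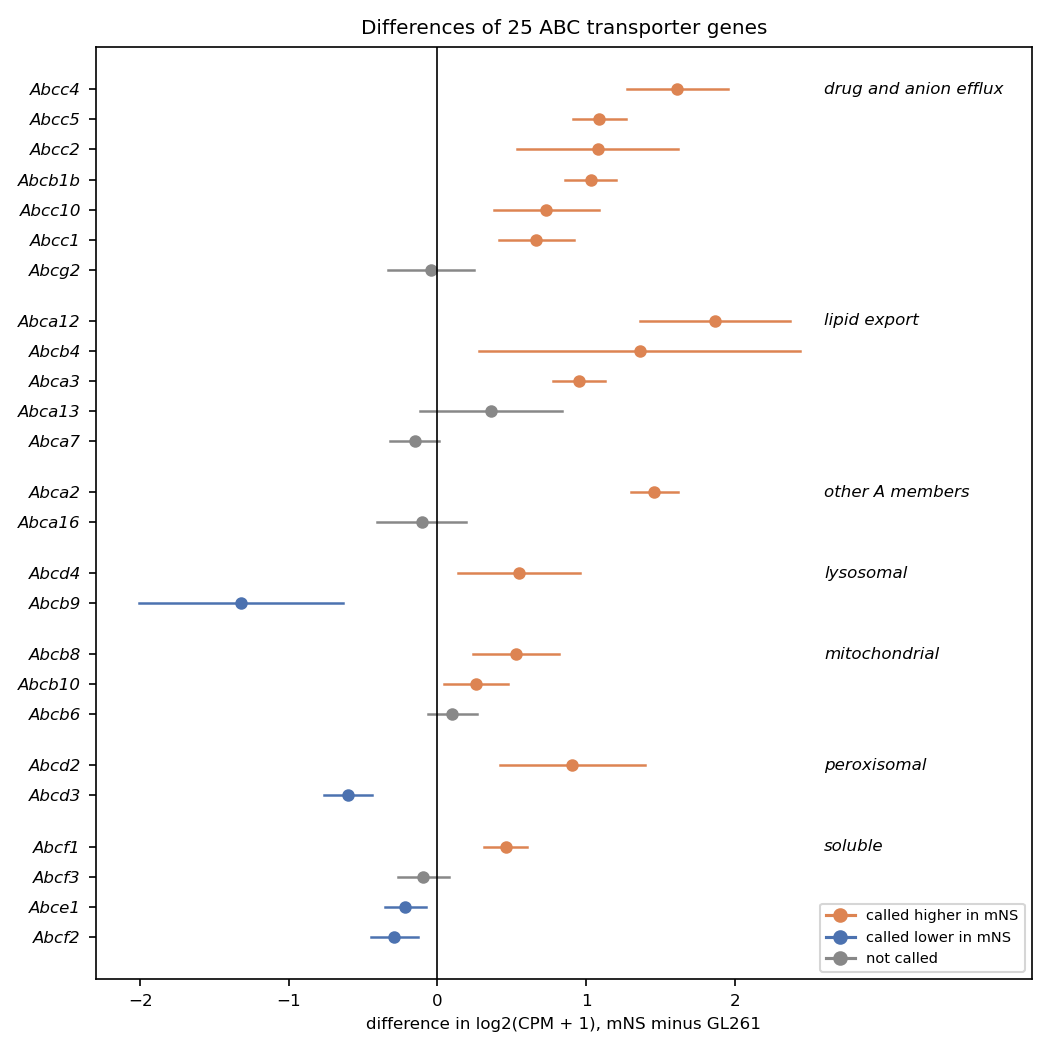
Difference in log2(CPM + 1) between mNS and GL261 for the 25 tested members, grouped by role; points are limma estimates, bars are 95% confidence intervals without adjustment for the number of genes, and colours give the call. In the drug and anion efflux group 6 of 7 members lie to the right of 0 with a call (all genes 32.2%), while Abcb9 lies furthest to the left. Abcc2, among the 6, passed the minimum mean only through mNS.

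Markers of other cell types were read from lists in the same table. Their calls are to be read against the 32.2% of all tested genes called higher in mNS and the 32.1% called lower. Of 8 microglia and macrophage genes 2 were listed, Csf1r and Cd68, of which 1 was called higher in mNS and none lower. They summed to between 4.05 and 5.44 CPM in GL261 and between 6.87 and 9.51 CPM in mNS. Of 8 endothelial genes Flt1 alone was listed, at 24.7 to 42.5 CPM in GL261 and 26.1 to 31.3 CPM in mNS, and the defining markers Pecam1, Cdh5 and Cldn5 were not in the table. The 3 listed genes of 7 for pericytes and smooth muscle (Pdgfrb, Cspg4 and Acta2) were all lower in mNS, with sums of 221 to 288 CPM against 75.5 to 98.5 CPM. Of 6 neural stem and progenitor genes 5 were listed, 2 called higher and 2 lower in mNS. Their sum was 8427 to 9421 CPM in GL261 against 4578 to 5283 CPM in mNS. A sum gives most weight to the most abundant genes, so it does not describe the list as a whole. Of 5 astrocyte genes 4 were listed, 1 higher and 3 lower, with sums of 222 to 294 CPM against 134 to 155 CPM. The 6 oligodendrocyte lineage genes were all listed, 4 higher and 2 lower, with sums of 1190.5 to 1277 CPM against 1038 to 1095 CPM. The 2 listed fibroblast genes of 5, Col1a1 and Pdgfra, split into 1 higher and 1 lower and summed to 235 to 241 CPM against 205 to 327 CPM. The part of such cells or programmes in the differences below was not tested.

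Of the 7 listed drug and organic anion pumps, 6 were called higher in the neurospheres (85.7%, all genes 32.2%), and none was called lower (all genes 32.1%). Abcc2, among the 6, passed the minimum mean only through mNS and could be called only as a rise. Abcb1b encodes one of the P-glycoproteins of the mouse, broad-range drug pumps of the cell surface. Its GL261 libraries stood at 30.0, 27.4 and 27.3 CPM and its mNS libraries at 57.2, 58.6 and 60.2 CPM. The groups lay far apart and each was narrow: the ratio of means was 2.08 and the log2 difference 1.03 ± 0.08 (SE, n = 3 each; limma adjusted p = 6.02e-06). By exact sequence, 6.04% of the 100-base windows of Abcb1b transcripts also occur in another gene, mostly Abcb1a, so that reads from those stretches could belong to either.

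Abcc4, which exports cyclic nucleotides, prostaglandins and many drug conjugates, had the largest log2(CPM + 1) difference of the group; by ratio of means the scarce Abcc2 exceeded it. It measured 50.5, 33.0 and 34.2 CPM in GL261 and 126, 120.2 and 114 CPM in mNS. The passage 17 library was the highest of GL261 but remained below every neurosphere library; the ratio of means was 3.06, the log2 difference 1.61 ± 0.15 (limma adjusted p = 2.26e-05). Its relative Abcc5, an exporter of cyclic nucleotides and other organic anions, measured 37.2, 32.1 and 33.5 CPM in GL261 and 74.4, 72.5 and 74.8 CPM in mNS. That is a ratio of 2.16 and a log2 difference of 1.09 ± 0.08 (limma adjusted p = 5.02e-06), again without overlap.

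Abcc1, the founding multidrug resistance protein, exports glutathione conjugates and leukotrienes. Its values were 135, 115 and 118 CPM in GL261 and 165, 204 and 219.6 CPM in mNS, with the passage 72 library lowest of the neurospheres and still above GL261. The ratio was 1.60 and the log2 difference 0.67 ± 0.11 (limma adjusted p = 0.000798). Lower down, Abcc10, a pump whose substrates include taxanes, measured 3.80, 3.29 and 3.76 CPM in GL261 and 7.47, 7.42 and 5.31 CPM in mNS (ratio 1.86; log2 difference 0.73 ± 0.15, adjusted p = 0.00295). Abcc2, which in liver exports conjugates into bile, was close to the floor in GL261 at 0.373, 0.598 and 0.289 CPM, or 17 reads in all. In mNS it stood at 2.94, 2.17 and 1.13 CPM (83 reads), a ratio of means of 4.96 and a log2 difference of 1.08 ± 0.24 (adjusted p = 0.00378). The pseudocount lowers that difference: it was 2.02 with a pseudocount of 0.1 and 2.28 in edgeR, where Abcc4 stood at 1.64 and 1.61. All 5 listed members of subfamily C were thus called higher in mNS (100%, all genes 32.2%), with Abcc2 in the test only through its mNS level.

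Abcg2, the breast cancer resistance protein, is often used to mark stem-like side-population cells. It was high in both forms and did not separate them: 171, 135 and 132 CPM in GL261 and 124, 137 and 164 CPM in mNS. The groups overlapped, and within each form the libraries spread over a wider range than the means differed. The log2 difference was -0.04 (unadjusted 95% confidence interval -0.33 to 0.25, limma adjusted p = 0.789). A difference within that interval is therefore not excluded. The sign itself was not fixed: it was 0.05 with columns rescaled to a common sum, 0.03 under quantile normalisation, 0.04 with array weights, 0.08 without GL261 replicate 1 and 0.05 without mNS replicate 1.

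**Figure D2:**
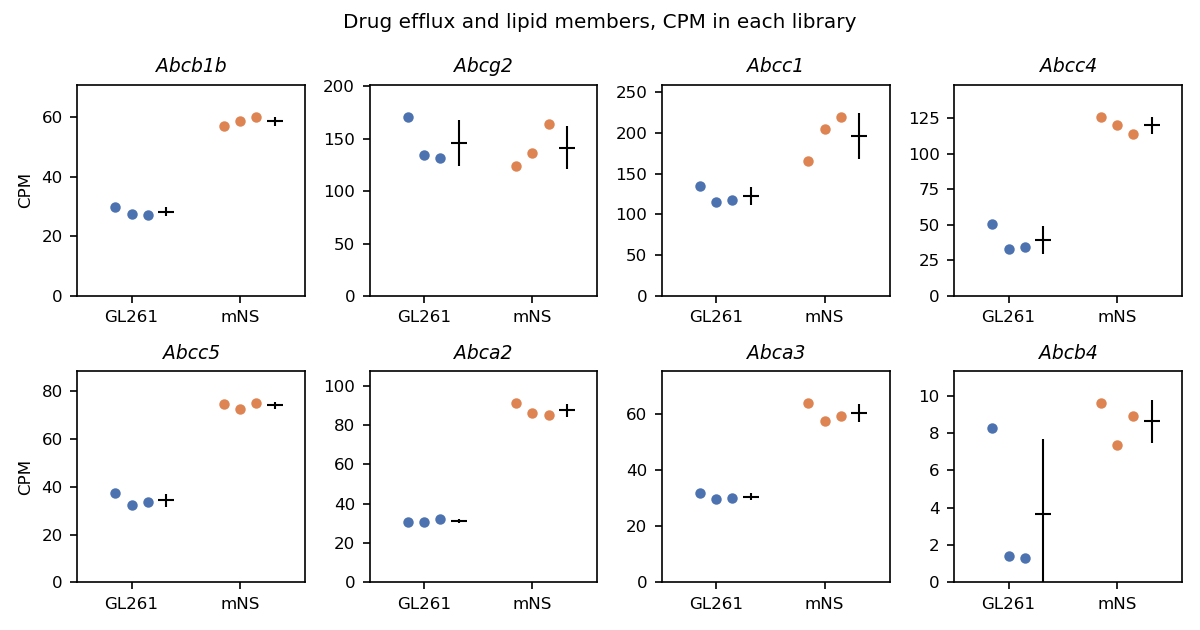
CPM in each library for 8 drug efflux and lipid members, with a separate axis from 0 for each gene; coloured points are libraries in the order of passage, and the black mark is the mean with its SD (n = 3). Abcb1b, Abcc1, Abcc4, Abcc5, Abca2 and Abca3 separate fully between the forms, Abcg2 overlaps, and Abcb4 is as high in the first GL261 library as in mNS.

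Summed over the 7 pumps, the values came to 428, 346 and 349 CPM in GL261 and to 557, 602 and 639 CPM in mNS. To compare pumps with each other, CPM was divided by exonic length in kb (GENCODE M21, all annotated exons merged). That length was 15092 bases for Abcc1, 8153 for Abcg2 and 6389 for Abcc4. It counts every annotated exon, whether or not these cells use it. The order of the pumps depends on these lengths, and no other lengths were tried. On that scale Abcg2 was the most abundant pump in GL261, with 46.0%, 45.5% and 44.3% of the group's summed CPM per kb in the 3 libraries. In mNS its share was 24.8%, 26.0% and 29.6%, and Abcc4 took 32.1%, 29.1% and 26.2% against 17.3%, 14.2% and 14.7% in GL261. Abcc4 exceeded Abcg2 in mNS at passages 72 and 77 but not at passage 85. The share of Abcc1 hardly differed between the forms, at 19.6% to 21.4% in GL261 and 17.8% to 21.4% in mNS.

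**Figure D3:**
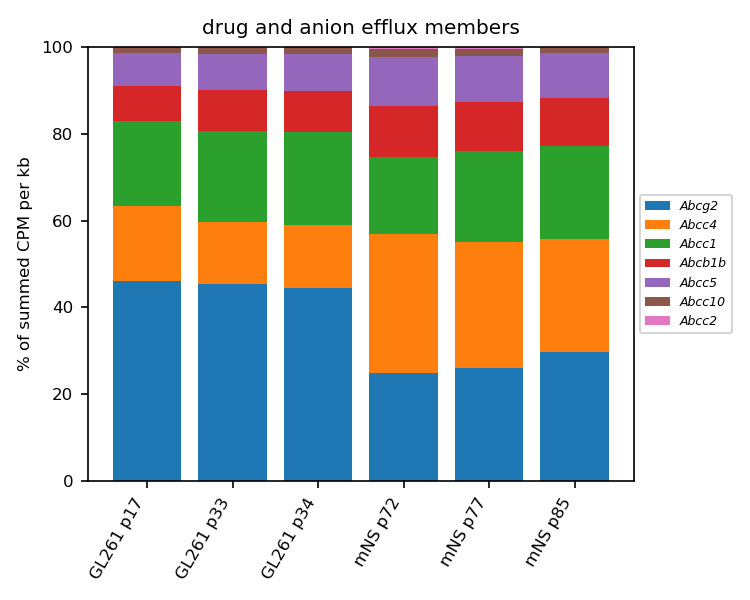
Share of each member in the summed CPM per kb of the 7 drug and anion efflux members; each bar is 1 library, named by form and passage, and the parts add up to 100%. Abcg2 makes up 44.3% to 46.0% of the efflux group in GL261 and 24.8% to 29.6% in mNS, and Abcc4 14.2% to 17.3% and 26.2% to 32.1%.

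The members with a called difference of at least 1 and a mean of at least 20 CPM in the higher form were Abca2, Abcb1b, Abcc4 and Abcc5, which all rose. The 250 bases before the RefSeq start of these genes are printed to show the promoter letters that go with these differences (GRCm38.p6, 5′ to 3′ on the gene's strand). They are Abca2 at chr2:25428349-25428598 (plus strand), Abcb1b at chr5:8797897-8798146 (plus), Abcc4 at chr14:118706220-118706469 (minus) and Abcc5 at chr16:20426395-20426644 (minus). For Abcc4 the outermost of 2 listed starts is shown. Capitals mark matches, on either strand, to any of 4 motifs. The GC box was searched as GGGCGG. The CCAAT box is spelled by its name. The core of the antioxidant response element was searched as TGACNNNGC. The letters searched for the E-box were CACGTG.
Abca2: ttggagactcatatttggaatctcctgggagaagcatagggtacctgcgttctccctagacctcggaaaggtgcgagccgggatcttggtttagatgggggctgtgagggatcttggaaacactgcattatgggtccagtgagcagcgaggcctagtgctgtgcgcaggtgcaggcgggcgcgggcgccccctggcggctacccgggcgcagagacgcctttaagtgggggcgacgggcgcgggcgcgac
Abcb1b: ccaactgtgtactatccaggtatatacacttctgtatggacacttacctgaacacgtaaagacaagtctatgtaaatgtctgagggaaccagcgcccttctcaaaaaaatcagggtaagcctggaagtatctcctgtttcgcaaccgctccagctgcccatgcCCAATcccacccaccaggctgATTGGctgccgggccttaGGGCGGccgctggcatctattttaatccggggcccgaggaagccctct
Abcc4: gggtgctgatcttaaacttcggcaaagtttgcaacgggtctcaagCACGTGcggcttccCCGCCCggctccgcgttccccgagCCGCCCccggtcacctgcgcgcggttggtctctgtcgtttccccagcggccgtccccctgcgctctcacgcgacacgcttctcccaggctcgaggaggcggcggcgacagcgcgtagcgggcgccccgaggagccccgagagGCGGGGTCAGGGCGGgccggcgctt
Abcc5: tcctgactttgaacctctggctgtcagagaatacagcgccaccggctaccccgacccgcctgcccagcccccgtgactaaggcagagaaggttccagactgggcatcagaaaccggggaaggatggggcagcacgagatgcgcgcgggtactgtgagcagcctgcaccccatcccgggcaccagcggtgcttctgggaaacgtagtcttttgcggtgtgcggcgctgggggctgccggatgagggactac
Abcb1b holds a pair of CCAAT boxes on opposite strands and 1 GC box between bases -87 and -43. Abcc4 holds 3 GC boxes, 1 E-box and 1 antioxidant core, the last directly beside the GC box nearest to the start. None of the 4 motifs occurs in the windows of Abca2 and Abcc5, and the RefSeq start of Abca2 lies upstream of its GENCODE start. Over all 32851 promoter windows of the same length, 32.7% held a GC box, 33.8% a CCAAT box, 10.2% the antioxidant core and 6.02% an E-box. Of the 21 members with a window, 12 held a GC box, 9 a CCAAT box, 3 the antioxidant core (Abcc2, Abcc4 and Abcc10) and 2 an E-box (Abcc4 and Abcf1). A member was counted if any of its windows matched, and some have more than 1. These counts of genes are therefore not comparable with the shares of single windows. A match is a description of letters and not of binding.

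Among the members that export lipids, 3 of 5 tested were called higher (60%, all genes 32.2%) and none lower (all genes 32.1%). These were Abca3, Abcb4 and Abca12, and the limits of Abcb4 and Abca12 are given below. Abca12 passed the minimum mean only through mNS and could be called only as a rise. Abca2, a transporter of endosomes and lysosomes that is abundant in myelin-forming cells, measured 30.6, 30.6 and 32.3 CPM in GL261 and 91.1, 86.4 and 85.0 CPM in mNS; it was listed apart, with the other A members. The groups were tight and far apart, with a ratio of 2.81 and a log2 difference of 1.46 ± 0.07 (limma adjusted p = 4.66e-07). Abca3, which loads phospholipid into lamellar bodies of the lung, measured 32.1, 30.0 and 30.1 CPM in GL261 and 64.0, 57.8 and 59.6 CPM in mNS (ratio 1.97; log2 difference 0.95 ± 0.08, adjusted p = 1.00e-05). Exons of the listed antisense gene D330041H03Rik cover 9.75% of the exonic length of Abca3, and whether the counting used strand is not stated in the labels; that gene was also called higher in mNS (log2 difference 0.71). Abca7, a phospholipid transporter that also acts in phagocytosis, measured 52.8, 50.4 and 49.1 CPM in GL261 and 47.8, 43.8 and 45.0 CPM in mNS. Its groups did not overlap, but the log2 difference of -0.15 was not called (95% confidence interval -0.32 to 0.01; adjusted p = 0.0950) except with array weights (-0.17, adjusted p = 0.0234).

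Abcb4, which flips phosphatidylcholine across the membrane, varied widely among the GL261 libraries. The passage 17 library held 8.27 CPM, and those of passages 33 and 34 held 1.42 and 1.30 CPM, a ratio of 6.08 between the first and the mean of the others. The mNS values of 9.59, 7.35 and 8.92 CPM overlapped with passage 17. With all libraries the ratio of means was 2.35 and the log2 difference 1.36 ± 0.47 (limma adjusted p = 0.0321); without GL261 replicate 1 the ratio was 6.34. The call was lost without any other single library (adjusted p between 0.0573 and 0.118), without the trend term (0.0517), in edgeR (0.0976) and in DESeq2 (0.204).

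Several low members rested on few reads. Abca12, which supplies lipid to the skin barrier, had 2 reads over the GL261 libraries (0, 0.0747 and 0.0722 CPM) and 117 over the mNS libraries (4.08, 2.86 and 1.84 CPM). The ratio of read rates was 59.0, with a 95% counting interval (Clopper-Pearson) of 16.0 to 493, and limma called the gene (adjusted p = 0.000108). Abcg4, a sterol exporter of brain cells, was read 8 times in GL261 but 55 times in mNS. Mean CPM differed by a ratio of 6.94, with 0.0745, 0.299 and 0.217 CPM against 1.51, 1.31 and 1.27 CPM. Abcg4 missed the minimum mean and was not tested in the main fit. Without that filter it entered the test, and 16 members were called higher in place of 15. Abca13, one of the largest members, stood at 0.523 to 1.12 CPM in GL261 and 0.920 to 1.81 CPM in mNS with overlap (log2 difference 0.36, 95% confidence interval -0.11 to 0.84; adjusted p = 0.160, and 0.0356 with array weights). Abca16, from a cluster of A genes on chromosome 7, stood at 4.98 to 6.05 CPM in GL261 and 4.74 to 5.74 CPM in mNS (log2 difference -0.11, 95% confidence interval -0.41 to 0.20; adjusted p = 0.501).

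Of the 3 mitochondrial members described 2 rose (66.7%, all genes 32.2%), none fell (all genes 32.1%) and Abcb6 was not called. Abcb8, a transporter of the inner membrane, rose from 37.3, 49.0 and 53.8 CPM in GL261 to 64.7, 65.1 and 71.6 CPM in mNS (ratio 1.44; log2 difference 0.53 ± 0.13, limma adjusted p = 0.00614). Its lowest GL261 value was that of passage 17.

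Abcb10, known for its role in haem synthesis of red cell precursors, measured 48.9, 43.1 and 41.2 CPM in GL261 and 48.5, 56.5 and 54.9 CPM in mNS. The passage 17 and passage 72 libraries overlapped. It was called higher (log2 difference 0.26 ± 0.09, limma adjusted p = 0.0377), a call lost without GL261 replicate 2 or 3 or mNS replicate 2 or 3 (adjusted p between 0.102 and 0.142), with libraries centred on their median gene (0.0559) and without the trend term (0.0521). Abcb6, a porphyrin transporter, measured 45.7, 44.8 and 43.5 CPM in GL261 and 46.3, 47.4 and 50.3 CPM in mNS. Its log2 difference of 0.10 was not called (95% confidence interval -0.06 to 0.26; adjusted p = 0.246), except with columns rescaled to a common sum (0.19, adjusted p = 0.0439). By exact sequence 45.2% of the 100-base windows of Abcb6 transcripts also occur in another gene model, mostly the overlapping Gm29253 on the same strand, so the count of Abcb6 is uncertain.

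**Figure D4:**
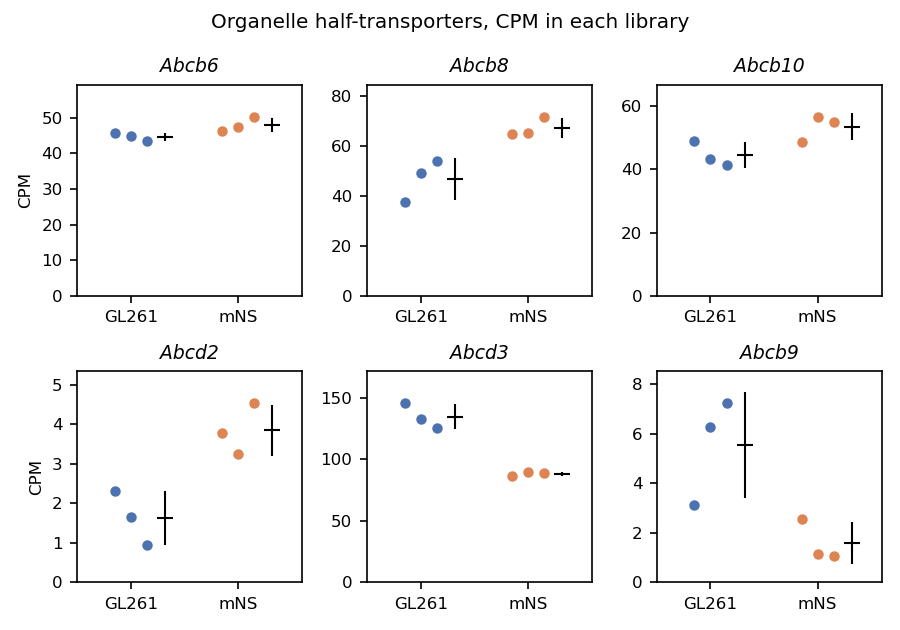
CPM in each library for 6 members of mitochondria, peroxisomes and lysosomes, with a separate axis from 0 for each gene; coloured points are libraries in the order of passage, and the black mark is the mean with its SD (n = 3). Abcd3 and Abcb9 lie lower in every mNS library, Abcb6, Abcb8 and Abcd2 higher, and Abcb10 overlaps.

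The peroxisomal members import fatty acids for shortening inside the organelle, and the 2 described went opposite ways. Abcd3, which takes up branched and dicarboxylic fatty acids, measured 146, 133 and 126 CPM in GL261 and 86.3, 89.8 and 89.0 CPM in mNS. The groups did not overlap, with a GL261 to mNS ratio of 1.53 and a log2 difference of -0.60 ± 0.07 (limma adjusted p = 9.67e-05). Abcd2, a transporter of very long-chain fatty acids, moved the other way at a low level, from 2.31, 1.64 and 0.939 CPM to 3.77, 3.25 and 4.53 CPM (log2 difference 0.91 ± 0.21, adjusted p = 0.00544).

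The lysosomal members went in opposite directions. Abcb9, a peptide transporter of lysosomes, measured 3.13, 6.28 and 7.22 CPM in GL261 and 2.57, 1.16 and 1.06 CPM in mNS. It fell without overlap, with a log2 difference of -1.32 ± 0.30 (limma adjusted p = 0.00452), although the GL261 value of passage 17 was close to the mNS value of passage 72. Abcd4, which works in the release of cobalamin from lysosomes, rose from 3.58, 4.71 and 5.92 CPM to 7.40, 6.19 and 8.35 CPM (log2 difference 0.55 ± 0.18, adjusted p = 0.0255). That call was lost without GL261 replicate 1 or 2 or mNS replicate 1 or 3 (adjusted p between 0.0565 and 0.0833) and under quantile normalisation (0.0864).

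Of the 4 soluble members of translation 1 rose (25%, all genes 32.2%), 2 fell (50%, all genes 32.1%) and 1 was not called. The differences were no more than 0.46 on the log2 scale in either direction. Abce1, which splits ribosomes after termination, measured 765, 749 and 689 CPM in GL261 and 630.3, 649.7 and 616 CPM in mNS (log2 difference -0.22 ± 0.06, limma adjusted p = 0.0117). The fall depended on the scaling: it was not called with columns rescaled to a common sum (-0.12, adjusted p = 0.0917), and the sign turned under quantile normalisation (0.02, adjusted p = 0.797). Abcf2 measured 324, 348 and 368 CPM in GL261 and 265, 291 and 293 CPM in mNS (log2 difference -0.29 ± 0.07, adjusted p = 0.00563; -0.15 and 0.0953 under quantile normalisation). Abcf1, which acts with the initiation factor eIF2, rose from 205, 183 and 188 CPM to 263, 255 and 274 CPM (ratio 1.37; log2 difference 0.46 ± 0.06, adjusted p = 0.000289). Abcf3, a relative linked to antiviral defence, measured 74.0, 78.7 and 81.5 CPM in GL261 and 78.9, 69.7 and 70.6 CPM in mNS with overlap. Its log2 difference of -0.10 was not called (95% confidence interval -0.27 to 0.08; adjusted p = 0.295), except with array weights (-0.16, adjusted p = 0.0273).

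Per kb of exon the order of the members was much alike in both forms at its upper end. All ranks here depend on the merged exon lengths. Abcf2 led with 135 ± 8.70 CPM per kb in GL261 and 110.2 ± 5.99 in mNS (SD, n = 3), followed by Abce1 with 122 ± 6.63 and 105 ± 2.82; the libraries of this pair overlapped in both forms. Abcf1 came next, at 43.5 ± 2.68 and 59.9 ± 2.11. Abcd3 stood at rank 5 of 26 in GL261 (20.5 ± 1.53 CPM per kb) and at rank 8 in mNS (13.4 ± 0.277). Abcc4 moved from rank 12 (6.14 ± 1.53) to rank 5 (18.8 ± 0.957), between Abcf3 (20.5 ± 1.42) and Abcg2 (17.4 ± 2.49), whose mNS libraries both overlapped with its own. The lowest ranks were held by Abca12, Abcg4, Abca13 and Abcc2 in both forms.

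**Figure D5:**
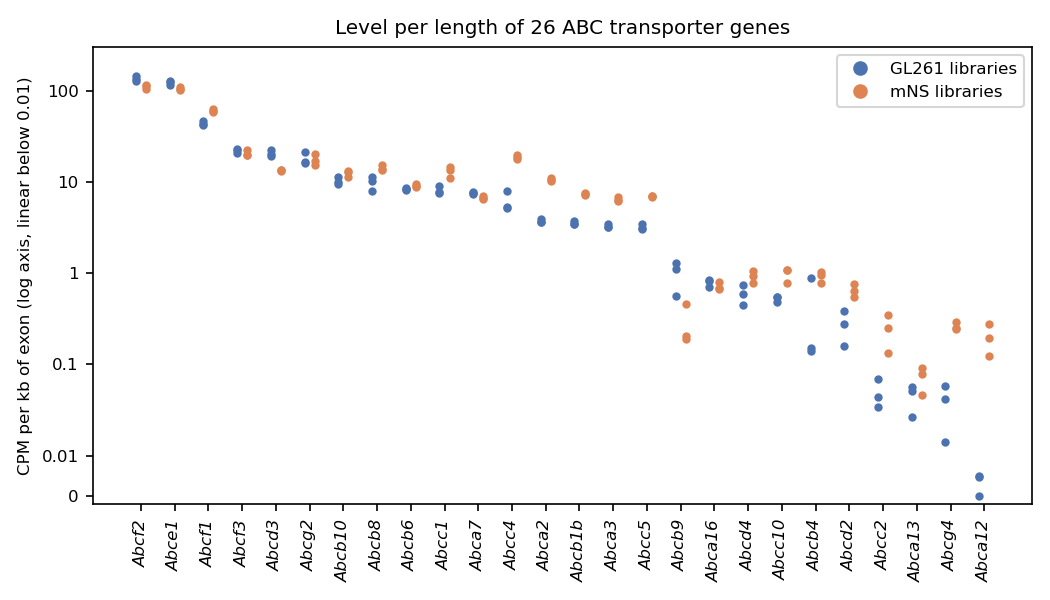
CPM per kb of merged exon for the 26 members in each library, on a log axis that is linear below 0.01, ordered by the GL261 mean; blue points are GL261 and orange points mNS libraries. Levels run from the translation members Abcf2 and Abce1, above 100 in every library, down to Abca12, and Abcc4, Abca2, Abcb1b, Abca3 and Abcc5 sit higher in mNS while Abcd3 sits lower.

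Position in the genome was compared with the listed genes on either side (GENCODE M21, GRCm38). Abcb1b and Abcb4 lie 27402 bases apart on chromosome 5 (8798147 to 8866315 and 8893717 to 8959231, plus strand). The next listed genes on either side of the pair were also called higher in mNS. They are Slc25a40 (log2 difference 0.40), 343350 bases from Abcb1b, and Crot (0.48), 6802 bases from Abcb4. Abca2, on chromosome 2 (25428703 to 25448540, plus strand), lies between genes that went opposite ways: Npdc1 fell (-4.64) and Ptgds rose (4.46). Abcc5 (chromosome 16, 20331303 to 20426394, minus strand) rose between Parl (0.02) and Eif2b5 (0.04), which were not called. Abcc4 (chromosome 14, 118482692 to 118706219, minus strand) lies between Gpr180 (0.60) and Cldn10 (1.81), both called higher. These lie 319431 and 81689 bases away. Abca12 and Abcc2 rose between listed genes that were called lower. These were Bard1 (-0.51) and Atic (-0.56) for Abca12, and Cutc (-0.55) and Dnmbp (-0.30) for Abcc2. Abcb9 fell between Vps37b (-2.63), called lower, and Ogfod2 (0.15), not called. Whether position had a part in any difference was not tested.

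Other genes that work with these transporters were counted from lists chosen by function. Their counts are to be read against the 32.2% of all tested genes called higher in mNS and the 32.1% called lower. The ABC genes Tap1 and Tap2, which the symbol pattern leaves out, encode the peptide pump of MHC class I. Tap2 rose from 23.0 ± 6.51 to 51.4 ± 12.8 CPM (SD, n = 3; log2 difference 1.14 ± 0.24, limma adjusted p = 0.00273), and Tap1 was at 37.7 ± 7.47 and 51.9 ± 15.3 CPM without a call (adjusted p = 0.117). Of 6 genes that load peptides beside this pump 4 were lower in mNS (66.7%) and none higher, among them the chaperone gene Calr (log2 difference -0.80), the tapasin gene Tapbp (-0.23) and its relative Tapbpl (-1.03); the other, named after its value was seen, was Pdia3 (-0.41).

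Of 10 genes of glutathione supply and conjugation, which furnishes substrates of the C pumps, 7 rose (70%, all genes 32.2%) and 1 fell (10%, all genes 32.1%). Gclc, the catalytic subunit of the limiting enzyme, rose from 39.5 ± 2.84 to 81.1 ± 7.35 CPM (log2 difference 1.02 ± 0.09, limma adjusted p = 1.88e-05). Its partner Gclm (0.27), the synthase gene Gss (0.67) and the transferase gene Gsta4 (1.93) also rose, while the transferase gene Gstm1 fell by 1.29 on the log2 scale with overlapping groups (adjusted p = 0.0431). Of 8 xenobiotic and stress factors none rose and 2 fell (25%), Ahr and Trp53 (-0.36; named after its value was seen). Ahr, the receptor for dioxin-like compounds, fell from 119 ± 22.6 CPM in GL261 to 17.9 ± 2.09 (log2 difference -2.66 ± 0.14, adjusted p = 7.80e-07). Nfe2l2, the antioxidant factor also called NRF2, stood at 83.0 ± 6.66 and 87.7 ± 11.3 CPM, and its inhibitor Keap1 at 63.6 ± 4.57 and 69.2 ± 1.81 CPM, both without a call (adjusted p = 0.566 and 0.183).

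Of 15 sterol sensing genes, which govern several lipid exporters, 6 rose (40%) and 3 fell (20%), against 32.2% and 32.1% of all genes. Nr1h3, the sterol receptor LXR alpha, rose from 13.2 ± 1.77 to 23.9 ± 6.30 CPM (log2 difference 0.78 ± 0.19, limma adjusted p = 0.00704), while Nr1h2, LXR beta, was not called (-0.13, adjusted p = 0.172). Their partner receptor gene Rxra fell from 69.5 ± 15.9 to 30.3 ± 1.85 CPM (-1.15 ± 0.16, adjusted p = 0.000267). Insig1, which holds the sterol-sensing complex in the endoplasmic reticulum, had the largest called log2 difference upward, from 63.3 ± 3.87 to 279 ± 30.0 CPM, and the phospholipid transfer gene Pltp the largest downward, from 10.5 ± 4.76 to 0.0981 ± 0.0377 CPM. The other that fell, named after its value was seen, was Lcat (-0.74).

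Of 11 genes of peroxisome import and fatty acid shortening 6 were called higher in limma (54.5%, all genes 32.2%) and none lower (all genes 32.1%): Pex19 (0.18) and Pex3 (0.42), which insert peroxisomal membrane proteins, and the import receptor gene Pex5 (0.85) rose, and Pex16 (0.13) was not called. Of 13 iron-sulfur and haem genes 4 rose and 4 fell, 30.8% each, which is near the share of all genes. Fech, which inserts iron to complete haem, went from 99.1 ± 6.50 down to 43.1 ± 0.673 CPM (-1.18 ± 0.07, limma adjusted p = 1.87e-06). The iron importer genes Slc25a37 (-0.20) and Slc25a28 (-0.37) also fell, and the iron-regulated aconitase gene Aco1 rose (0.72). Of 8 lysosomal and cobalamin genes 2 rose (25%) and 4 fell (50%): Mmachc, which processes cobalamin, fell (-1.03), Lamp2 rose (0.88), and Lmbrd1 (-0.05) and Mmadhc (-0.14), which handle the same vitamin, were not called. Of 10 genes of ribosome recycling and eIF2 control 4 rose and 4 fell, 40% each; Pelo (-0.89) and the eIF2 subunit gene Eif2s1 (-0.44) fell, and the ribosome rescue gene Hbs1l (0.47) and the kinase gene Eif2ak4 (0.76) rose. Named after their values were seen, the others called in the last 3 lists were Alas1 (0.44), Cpox (0.40), Isca1 (0.29) and Ireb2 (-0.42) for iron and haem, Mtr (0.35), Mut (-0.55), Lamp1 (-0.45) and Ctns (-0.38) for the lysosome and cobalamin, and Eif2s3x (0.54), Gcn1l1 (0.39), Eif1 (-0.38) and Etf1 (-0.44) for translation.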

How the data were processed

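The members and gene lists were chosen with earlier results of these data known. Per the labels' protocols, stranded libraries were made from total RNA after removal of ribosomal RNA and sequenced from 1 end; the submitters' processing notes name TopHat2 (2), HTSeq (0.5.3p9), edgeR (3.4.2) and mm10, with no roles. The file deposited by the authors gives each gene's signal as CPM scaled with TMM factors, per its name and the series text; columns sum to 968335 to 1037864. Low values are whole multiples of 1 step per column, and 100% of values came out as whole reads (within 0.001), which gave depth and counts. Counting intervals cover counting error only, since no molecular identifiers mark single molecules.

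Groups were compared in limma 3.58.1 (R 4.3.3; lmFit and eBayes with a trend, two-sided) after adding a pseudocount of 1 to CPM and taking log2, over 12006 genes whose mean reached 1 CPM, with Benjamini-Hochberg adjustment over all of them. The pseudocount makes log2 differences of low genes too small; ratios are of mean CPM. Alternatives included edgeR 4.0.16 (quasi-likelihood) and DESeq2 1.42.0 on whole reads; the steps were tested on simulated data. Of the 28 members 2 are not reported here, nor is 1 gene of a companion list; all stayed in the fit. Every other member is named, and library values are written for members fixed by symbol and for any other called at a log2 difference of at least 1; from each companion list the first 3 tested genes and the largest called rise and fall are named. Lengths and positions come from GENCODE M21 (all 26 symbols matched), and promoter windows from RefSeq (21 matched). Python 3.11.15 with pandas 2.3.3, scipy 1.17.1 and matplotlib 3.10.9 was used.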

Additional observations from a re-analysis of the deposited data

How the results depend on the processing

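The alternatives were pseudocounts of 0.5 and 0.1, no filter or a mean of at least 5 CPM, 3 rescalings, array weights, no trend term in limma, both count tests, an adjusted p under 0.01 and leaving out each library. The members called higher numbered 12 to 16 over all of them and those called lower 2 to 6, with 2 under quantile normalisation against 4. With 1 library left out, 12 to 14 were called higher, 4 lower, and 6 to 9 at a difference of at least 1; the last number was 8 with all libraries and 5 with a mean of at least 5 CPM, where fewer members were tested. Direction and call were kept under every alternative that gave a value by 12 members that rose (Abca2, Abca3, Abca12, Abcb1b, Abcb8, Abcc1, Abcc2, Abcc4, Abcc5, Abcc10, Abcd2 and Abcf1) and 2 that fell (Abcb9 and Abcd3). The sign of the log2 difference of Abcg2 turned under 5 alternatives: it was 0.0490 with a common sum, 0.0294 with quantile normalisation and 0.0367 with array weights, and with 1 library left out it ran from -0.151 to 0.0782, above 0 without GL261 replicate 1 or mNS replicate 1. That of Abce1 turned under quantile normalisation (0.0184). The cause was not tested. No paired analysis was possible because the labels give passages that the groups do not share, and no replicate numbers. Depth limits Abca12, Abcc2 and Abcg4, with 2, 17 and 8 reads in GL261.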
